A study of Mus musculus with 16 samples.

Results

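The genes described here are 36 genes of glucose uptake, glycolysis, lactate handling, pyruvate dehydrogenase control and the pentose phosphate pathway, each named by its symbol. All 36 were found among the 31274 features of the deposited table, and all 36 had a mean of at least 1 FPKM (fragments scaled to transcript length and to library size) over the libraries, the minimum set for testing. The RNA-seq libraries came from the whole uterus, taken after ovariectomy, of 2 mouse strains. One strain, PgrcrePgrALsL/+, is labelled as overexpressing progesterone receptor isoform A (called PRA here), and the other, PgrcrePgrBLsL/+, isoform B (PRB). Both carry Cre recombinase expressed from the Pgr locus, so the added receptor is limited to cells in which that locus is or has been active, and no strain without an added receptor was used here. The animals received oil or progesterone (P4) for 6 h, 2 weeks after ovariectomy, and are described as housed until 8 weeks of age, with 4 libraries in each of the 4 groups. The labels number them as biological replicates but do not say how animals were assigned, so p-values measure the spread between these libraries. The labels also contain a protocol sentence about mated females at day 4 of pregnancy, which contradicts the ovariectomy stated everywhere else, and the groups follow the latter. The run names in the sample descriptions carry the letter A for every PRA library and B for every PRB library, with lower numbers for oil than for P4; what the letters and numbers stand for is not stated, and it cannot be told apart from strain and treatment.

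Glycolysis splits glucose into pyruvate and yields ATP and NADH. Hexokinase traps glucose in the cell as glucose 6-phosphate, phosphofructokinase commits it to the pathway, and lactate dehydrogenase regenerates NAD+ by turning pyruvate into lactate. Pyruvate dehydrogenase instead sends pyruvate into the mitochondrial tricarboxylic acid (TCA) cycle and is switched off by the pyruvate dehydrogenase kinases. The pentose phosphate pathway branches off at glucose 6-phosphate and gives NADPH and ribose 5-phosphate. Most steps have several isozymes, made from different genes, that differ in affinity, regulation and tissue. In the uterus, glucose uptake and glycolytic enzymes are known to rise when the stroma prepares for implantation and decidualizes, under progesterone.

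Across the 16 libraries total FPKM lay between 499748 and 595748 and was higher with P4, while the upper quartile lay between 14.5 and 15.1. The library totals in fragments are not used here, so that the counting error of single values is unknown. Pgr itself, the targeted gene, was at 56.8 to 68.9 FPKM in PRA and 79.4 to 87.6 FPKM in PRB with oil, without overlap, but the difference of 0.36 on the log2 scale had an adjusted p of 0.588. With P4 the difference was 0.57 (adjusted p = 0.00575). The table does not separate the isoforms. Markers of uterine epithelium, stroma and smooth muscle were present in all libraries, with summed levels of 1276 to 2182, 1066 to 1478 and 1098 to 1833 FPKM.

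Several summed marker levels separated fully between oil and P4. Endothelial markers were at 252 to 316 FPKM with oil and 176 to 217 FPKM with P4 in PRA, and at 276 to 299 FPKM and 242 to 249.6 FPKM in PRB, with 3 of 7 genes lower in PRA and 1 in PRB. Gland markers were at 144 to 179.5 FPKM with oil and 193 to 257 FPKM with P4 in PRA, and at 156 to 188 FPKM and 246 to 307 FPKM in PRB. Of the 3 gland genes tested 1 was higher in PRA and 2 in PRB. Ovary and oviduct markers were at 35.1 to 45.2 FPKM with oil and 20.0 to 23.1 FPKM with P4 in PRA, and at 32.9 to 43.9 FPKM and 21.8 to 23.2 FPKM in PRB. Of the 4 such genes tested 1 was lower in PRA and 2 in PRB. Epithelial markers separated in PRB, at 1314 to 1342 and 1679.6 to 2182 FPKM, and overlapped in PRA, at 1276 to 1479 and 1368 to 1743 FPKM. The 10 epithelial genes did not move as one: 4 were higher and 3 lower in PRA, and 4 higher and 1 lower in PRB. These marker counts stand beside wide changes: with P4 36.6% of all features tested were higher and 33.2% lower in PRA. In PRB the shares were 36.2% and 32.9%. Skeletal muscle markers were at 15.0 to 67.4 FPKM with oil and 83.4 to 152 FPKM with P4 in PRA, and at 17.3 to 42.9 FPKM and 48.4 to 79.4 FPKM in PRB. With P4 most of that sum was Acta1, the skeletal actin gene, which rose by 2.27 (adjusted p = 0.00328) in PRA and had 1.01 (adjusted p = 0.146) in PRB. Tnnt3 rose in both strains, and the other 6 of the 8 genes were under the minimum for testing, with the myosin genes Myh1, Myh2 and Myh4 at or below 0.0363 FPKM. Adipose markers ranged from 81.6 to 621 FPKM and red blood cell markers from 72.8 to 538 FPKM, with overlap between treatments in both strains. The third PRB replicate with P4 stood apart as a library, with the highest value on the second principal component (42.6 against 5.44 to 17.004 for the rest of its group). Its leukocyte markers summed to 70.8 FPKM, against 24.9 to 39.3 FPKM in all other libraries, and its epithelial markers to 2182 FPKM. Without it 20 of the 36 genes rose and 11 fell with P4 in PRB, in place of the 21 and 10 given below. The part of these cell types in the results was not tested. In whole tissue, fewer cells of a type and less RNA per cell cannot be told apart.

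Progesterone moved most of the 36 genes, and in the same direction in both strains. Differences are on the log2(FPKM + 1) scale from limma, with adjusted p-values (Benjamini-Hochberg) over all 15408 features tested, and a gene is said to have risen or fallen where this p was under 0.05. In PRA 23 of the 36 rose and 9 fell, against 36.6% and 33.2% of all features tested. In PRB 21 rose and 10 fell, against 36.2% and 32.9%. The median difference of the 36 was 0.40 in PRA and 0.36 in PRB, and over all features tested 0.013 and 0.

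Increases were common to 21 genes and decreases to 8 in the 2 strains, and no gene rose in one and fell in the other. Of all features tested, 32% rose in both, 28% fell in both and 0.273% moved in opposite directions; the 2 strains have no library in common. Changes of at least 1 upward were found in 6 genes in PRA and 5 in PRB, where 6.94% and 7.17% of all features rose as much. As many as 4 genes in PRA and 3 in PRB fell by at least 1, against 7.28% and 6.52% of all features. Summed over the 36 genes, the level rose from 1591 ± 29.9 FPKM with oil to 2329 ± 18.3 FPKM with P4 in PRA (SD, n = 4) and from 1566 ± 47.0 to 2244 ± 78.6 FPKM in PRB, with no overlap between treatments. The plot of the responses by step of the pathway shows the split within isozyme families.

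**Figure D1:**
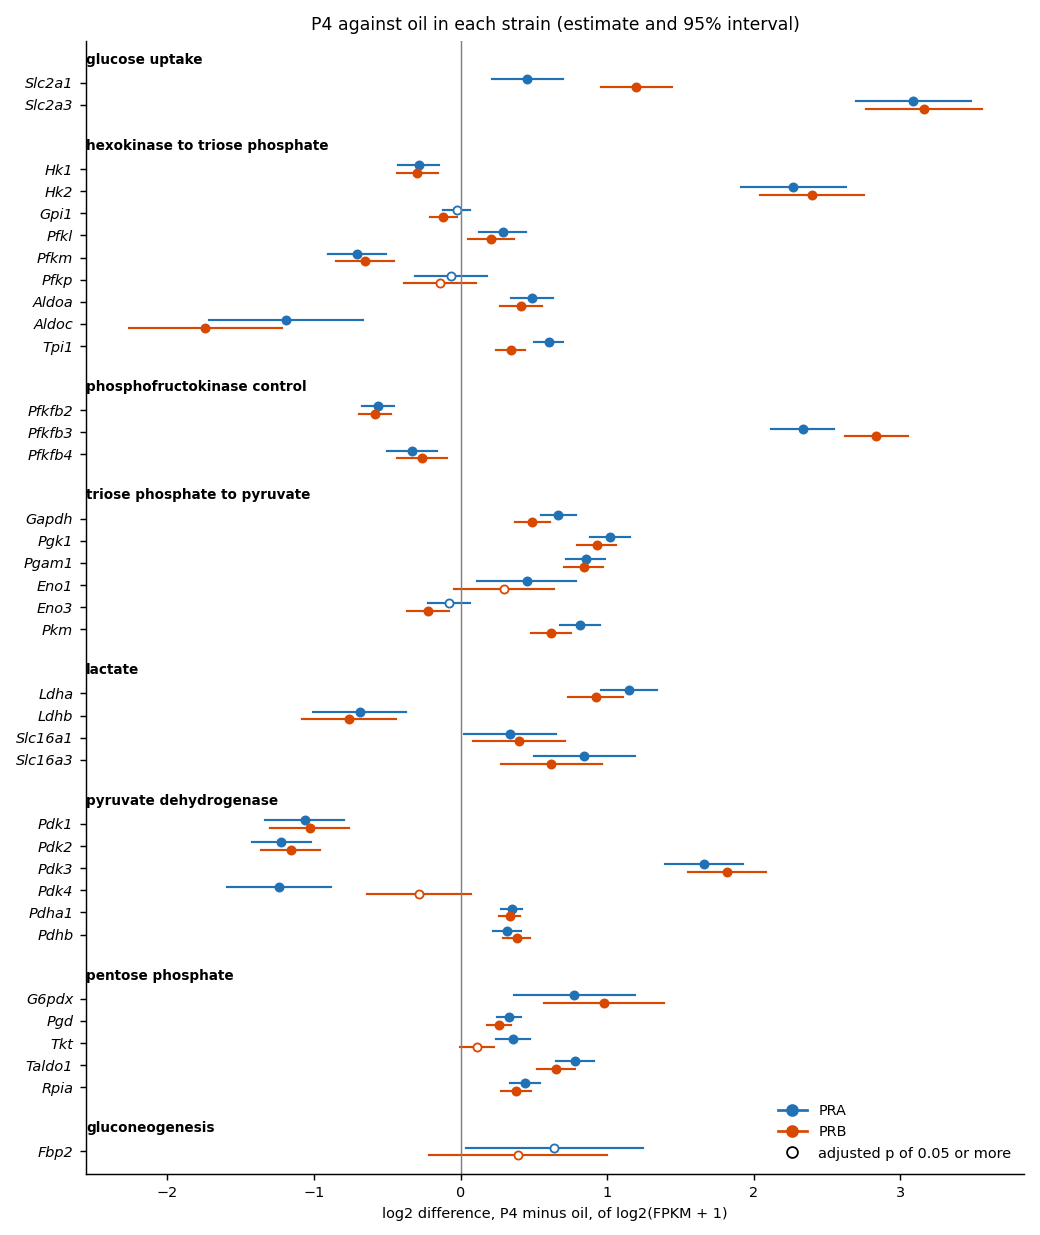
Log2 difference between P4 and oil for the 36 genes in PRA (blue) and PRB (orange), with 95% intervals from the fit on log2(FPKM + 1), grouped by step; open points did not pass an adjusted p of 0.05. Slc2a3, Hk2, Pfkfb3 and Pdk3 lie farthest to the right in both strains, and Aldoc, Pdk1 and Pdk2 lie below -1 in both.

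Slc2a3, which encodes the high-affinity glucose transporter GLUT3 (chr6:122727809-122801640, mm10), had the largest increase of the 36 genes in both strains. In PRA it was at 8.42, 9.60, 8.89 and 8.12 FPKM with oil and at 76.8, 84.6, 82.7 and 83.9 FPKM with P4. In PRB it was at 14.1, 12.3, 8.35 and 12.02 FPKM with oil and at 71.7, 113, 152 and 122 FPKM with P4. Every P4 library exceeded every oil library of its strain, and the PRB libraries with P4 were more spread than those of PRA. The log2 differences were 3.09 (SE 0.18, adjusted p = 2.59e-09) in PRA and 3.16 (SE 0.18, adjusted p = 1.97e-09) in PRB, and the group means differed 9.37-fold and 9.83-fold.

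Slc2a1 encodes GLUT1, the basal glucose transporter of many cells (chr4:119108711-119137983). Its FPKM values in PRA were 29.0, 22.7, 26.9 and 20.3 with oil and 36.3, 33.95, 32.8 and 32.8 with P4. The PRB libraries had 20.3, 22.4, 17.4 and 16.98 with oil and 44.5, 45.6, 52.1 and 39.8 with P4. The treatments did not overlap in either strain, and every PRB library with P4 was above every PRA library with P4. Slc2a1 rose by 0.45 (SE 0.11, adjusted p = 0.00206) in PRA and by 1.199 (SE 0.11, adjusted p = 2.30e-07) in PRB. With oil Slc2a1 had the higher level of the 2 transporters in every library, and with P4 Slc2a3 did: the ratio of Slc2a1 to Slc2a3 went from 2.83 ± 0.498 to 0.415 ± 0.0382 in PRA and from 1.69 ± 0.323 to 0.423 ± 0.136 in PRB (SD, n = 4).

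The 2 hexokinase genes parted. Hk2, the inducible hexokinase (chr6:82725025-82774454), was at 4.14, 5.13, 3.99 and 5.85 FPKM with oil and 29.8, 25.9, 28.1 and 23.4 FPKM with P4 in PRA. Its PRB values were 2.98, 2.74, 4.80 and 5.60 FPKM with oil and 23.9, 25.6, 22.4 and 27.6 FPKM with P4. Hk2 rose by 2.27 (SE 0.16, adjusted p = 1.81e-08) in PRA and 2.40 (SE 0.16, adjusted p = 1.02e-08) in PRB, with wide gaps between the treatments. Hk1, the constitutive hexokinase, fell slightly in both strains, with differences of -0.28 (SE 0.064, adjusted p = 0.00114) and -0.30 (SE 0.064, adjusted p = 0.000830), from 32.8 ± 0.663 to 26.9 ± 3.23 FPKM in PRA and from 32.8 ± 1.21 to 26.5 ± 1.16 FPKM in PRB. Hk2 stood at 0.145 ± 0.0236 of the Hk1 level with oil in PRA and at 0.123 ± 0.0439 in PRB, and with P4 the 2 genes were nearly level, at 0.999 ± 0.0984 and 0.941 ± 0.127.

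Gpi1, which encodes the isomerase of the next step, was near 62.6 FPKM with oil in PRA and had differences of -0.026 (adjusted p = 0.604) in PRA and -0.12 (adjusted p = 0.0236) in PRB. The PRB call was lost under 3 of 24 alternatives, among them without the second replicate with oil and without the second with P4. At the phosphofructokinase step the muscle-type subunit gene Pfkm fell from 18.3 ± 1.93 to 10.8 ± 0.840 FPKM in PRA and from 17.3 ± 0.941 to 10.7 ± 1.54 FPKM in PRB, differences of -0.71 (SE 0.091, adjusted p = 6.65e-06) and -0.65 (SE 0.091, adjusted p = 1.44e-05). The liver-type subunit gene Pfkl rose by 0.29 (adjusted p = 0.00260) in PRA and 0.21 (adjusted p = 0.0192) in PRB, and the platelet-type subunit gene Pfkp had differences of -0.066 (adjusted p = 0.616) and -0.14 (adjusted p = 0.291). Pfkm and Pfkl were nearly level with oil, and with P4 Pfkm stood at 0.437 ± 0.0429 of Pfkl in PRA and 0.503 ± 0.128 in PRB. Pfkp shares 748 bases of exon with the opposite-strand gene Pitrm1, and whether the counting used strand is not given in the sources used here. Slc2a1, Gpi1, Pfkm, Pfkfb2, Aldoa, Tpi1 and Pdha1 each share between 18 and 425 bases of exon with an opposite-strand gene.

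Fructose 2,6-bisphosphate, the strongest activator of phosphofructokinase, is made and removed by the bifunctional enzymes of the Pfkfb genes. Pfkfb3, whose product mainly makes the activator (chr2:11471433-11554077), was at 21.3, 19.1, 23.3 and 21.3 FPKM with oil and 132, 112, 104 and 98.5 FPKM with P4 in PRA. In PRB the values were 18.6, 24.3, 25.2 and 25.1 FPKM and 170.0, 177, 167 and 172 FPKM. All PRB libraries with P4 were above all PRA libraries with P4. Pfkfb3 rose by 2.33 (SE 0.099, adjusted p = 2.07e-10) in PRA and by 2.84 (SE 0.099, adjusted p = 2.67e-11) in PRB. The other family members among the 36 genes fell: Pfkfb2 with -0.56 (adjusted p = 1.60e-07) and -0.59 (adjusted p = 1.08e-07), and Pfkfb4 with -0.33 (adjusted p = 0.00160) and -0.26 (adjusted p = 0.00845). From about the level of Pfkfb2 with oil, Pfkfb3 came to 7.21 ± 1.23 times that level with P4 in PRA and 11.9 ± 0.503 times in PRB.

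**Figure D2:**
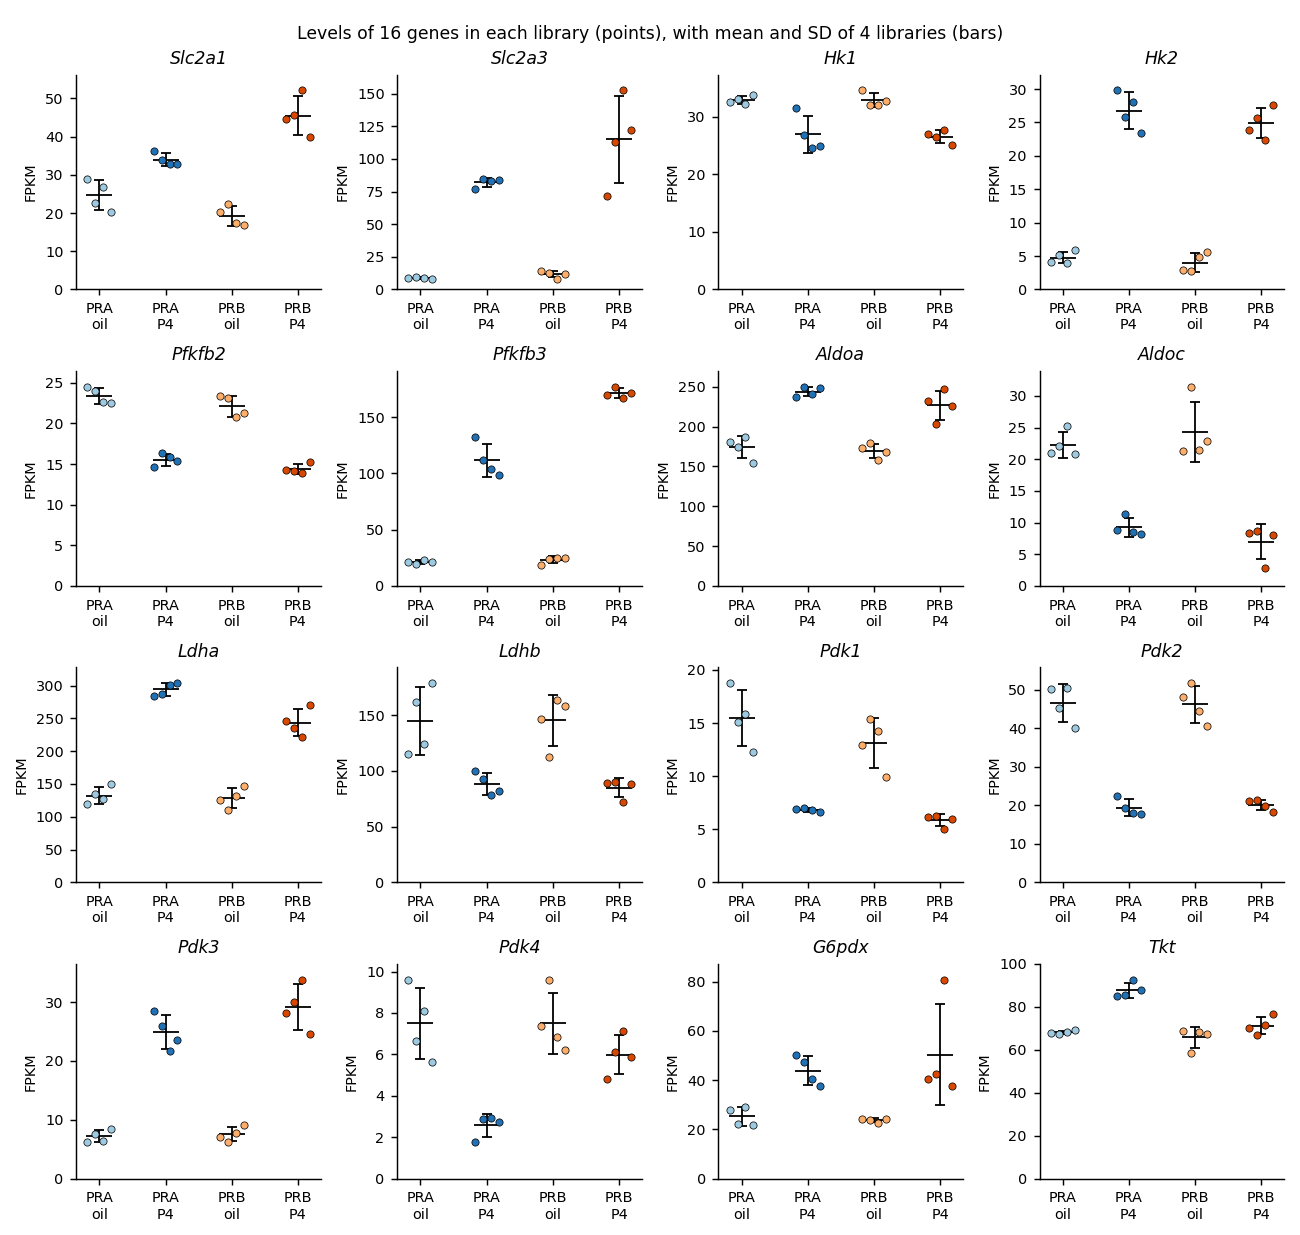
FPKM of 16 of the genes in each of the 16 libraries (points, 4 per group), with mean and SD of 4 libraries as black bars; each vertical axis starts at 0. Slc2a3, Hk2, Pfkfb3, Ldha and Pdk3 are higher and Aldoc, Ldhb, Pdk1 and Pdk2 lower in every P4 library than in every oil library of the same strain, while Pdk4 and Tkt separate by treatment in PRA and overlap between treatments in PRB.

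The promoters of the genes with the largest shared changes are shown because Slc2a3, Pfkfb3, Hk2 and Pdk3 moved together. RefSeq promoter windows on build GRCm38.p6, the assembly of mm10, matched 35 of the 36 genes, all but Slc2a3. The windows hold the 250 bases before a start, and bases that the GENCODE annotation counts as exon were left off the printed sequences. All are printed 5′ to 3′ on the minus strand, where these genes lie. Capitals mark 4 motifs searched on both strands: the hypoxia response core (ACGTG or GCGTG), the E-box (CACGTG, which contains ACGTG), the GC box (GGGCGG) and the steroid receptor half-site (AGAACA).
Hk2, chr6:82774455-82774704: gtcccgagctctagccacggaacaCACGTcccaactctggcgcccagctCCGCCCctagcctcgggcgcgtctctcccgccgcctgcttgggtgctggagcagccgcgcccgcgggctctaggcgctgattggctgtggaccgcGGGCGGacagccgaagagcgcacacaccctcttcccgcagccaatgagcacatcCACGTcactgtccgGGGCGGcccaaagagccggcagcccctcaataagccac
Pfkfb3, upstream start, chr2:11554078-11554179: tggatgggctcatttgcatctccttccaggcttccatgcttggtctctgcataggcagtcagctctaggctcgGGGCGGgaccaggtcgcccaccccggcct
Pfkfb3, downstream start, chr2:11502102-11502340: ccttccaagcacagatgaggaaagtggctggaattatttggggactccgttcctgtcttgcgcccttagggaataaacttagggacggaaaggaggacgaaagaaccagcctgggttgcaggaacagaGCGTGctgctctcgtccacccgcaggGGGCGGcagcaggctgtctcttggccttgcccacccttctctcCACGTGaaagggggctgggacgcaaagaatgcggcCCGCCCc
Pdk3, chrX:93832202-93832400: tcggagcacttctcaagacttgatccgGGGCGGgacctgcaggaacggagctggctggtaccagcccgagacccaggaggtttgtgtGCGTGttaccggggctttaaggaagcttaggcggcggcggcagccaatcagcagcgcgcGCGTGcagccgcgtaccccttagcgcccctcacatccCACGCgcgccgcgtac

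The hypoxia response core was in 43 of the 52 windows of the 35 genes (82.7%) and in 54.3% of the 13401 windows of all genes tested, at a similar median GC content of 60.0% and 59.6%. The E-box was in 13.5% of the windows of the 35 genes and 8.07% of those of genes tested. For the GC box the shares were 51.9% and 56.2%, and for the steroid receptor half-site 21.2% and 10.9%. These matches describe letters in a window and show no binding. By gene, 33 of the 35 had the core in at least 1 window, all but Gpi1 and Tpi1, so that genes that rose and genes that fell both held it. Of all 27018 genes with a window, tested or not, 41.5% had it. The share by gene among genes tested was not computed, and a gene with several windows has more chances to hold the core.

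Aldolase, the next step, again showed a split. Aldoa, the abundant muscle-type isozyme and the highest of the 36 genes on average, rose from 174 ± 14.2 to 244 ± 6.05 FPKM in PRA and from 169.8 ± 8.76 to 227 ± 18.3 FPKM in PRB, by 0.49 (SE 0.066, adjusted p = 1.16e-05) and 0.41 (SE 0.066, adjusted p = 5.77e-05). Aldoc, the brain-type isozyme, was at 21.0, 22.1, 25.3 and 20.8 FPKM with oil and 8.82, 11.4, 8.48 and 8.27 FPKM with P4 in PRA. In PRB it was at 21.3, 31.4, 21.5 and 22.9 FPKM and 8.43, 8.66, 2.80 and 8.05 FPKM, with a low value in the third P4 replicate, without which the PRB difference of Aldoc was -1.41. Aldoc fell, with differences of -1.19 (SE 0.24, adjusted p = 0.000453) in PRA and -1.74 (SE 0.24, adjusted p = 1.39e-05) in PRB. Tpi1, which interconverts the triose phosphates, rose by 0.60 (SE 0.044, adjusted p = 2.28e-08) in PRA and 0.34 (SE 0.044, adjusted p = 7.36e-06) in PRB.

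From triose phosphate to pyruvate 5 of 6 genes rose in PRA and 4 in PRB, against 36.6% and 36.2% of all features tested. Pgk1, which encodes the first ATP-yielding enzyme of glycolysis, went from 36.8, 36.1, 37.4 and 40.3 FPKM to 72.7, 81.8, 76.7 and 78.3 FPKM with P4 in PRA. The corresponding PRB values were 34.7, 33.7, 35.4 and 37.1 FPKM and 66.0, 63.1, 77.8 and 65.9 FPKM. Every P4 library lay above every oil library, with differences of 1.02 (SE 0.061, adjusted p = 3.27e-09) and 0.93 (SE 0.061, adjusted p = 7.31e-09). Pgam1, the phosphoglycerate mutase gene, rose by 0.85 (adjusted p = 1.71e-08) and 0.84 (adjusted p = 1.94e-08). Pkm, which encodes pyruvate kinase, rose by 0.82 (adjusted p = 3.16e-08) and 0.62 (adjusted p = 5.48e-07), and Gapdh by 0.67 (adjusted p = 6.66e-08) and 0.49 (adjusted p = 1.68e-06). The table does not separate the splice forms of Pkm, and the level of Gapdh is uncertain because its many processed copies can take fragments.

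The 2 enolase genes each passed in 1 strain. Eno1, the ubiquitous enolase, was at 58.5, 66.0, 42.7 and 68.1 FPKM with oil and 81.3, 60.2, 100.3 and 81.2 FPKM with P4 in PRA, overlapping, with 0.45 (SE 0.16, adjusted p = 0.0182). This call was lost under 5 of 24 alternatives, among them without the third replicate with oil and without the third with P4. Its difference in PRB was 0.30 (SE 0.16, adjusted p = 0.104). The near-identical copy Eno1b is listed as a feature of its own, at 39.4 ± 2.80 FPKM with oil and 55.7 ± 3.20 FPKM with P4 in PRA, so part of the Eno1 signal may be counted there. Summed, Eno1 and Eno1b were at 79.8 to 111 FPKM with oil and 118 to 159 FPKM with P4 in PRA, and at 88.7 to 105 and 108 to 128 FPKM in PRB, without overlap in either strain. Eno3, the muscle-type enolase, had differences of -0.079 (adjusted p = 0.299) in PRA and -0.22 (adjusted p = 0.00816) in PRB.

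The 2 lactate dehydrogenase genes, both abundant, moved in opposite directions. Ldha, whose subunit favours the formation of lactate, was at 119, 134, 126 and 149.8 FPKM with oil and 285, 287, 302 and 304 FPKM with P4 in PRA. In PRB it was at 126, 109.6, 132 and 146 FPKM with oil and 245, 235, 222 and 271 FPKM with P4. Ldhb, whose subunit favours the use of lactate, went from 115, 161, 124 and 179 FPKM to 100.1, 93.0, 78.3 and 82.2 FPKM in PRA. Its PRB libraries went from 147, 112, 164 and 158 FPKM to 88.7, 90.3, 71.9 and 88.3 FPKM. Neither gene overlapped between treatments within a strain. Ldha rose by 1.15 (SE 0.087, adjusted p = 2.85e-08) and 0.92 (SE 0.087, adjusted p = 2.74e-07), and Ldhb fell, with differences of -0.69 (SE 0.15, adjusted p = 0.000700) and -0.76 (SE 0.15, adjusted p = 0.000307). The ratio of Ldhb to Ldha was 1.09 ± 0.130 with oil and 0.302 ± 0.0437 with P4 in PRA (SD, n = 4), and 1.13 ± 0.0939 and 0.349 ± 0.0292 in PRB.

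Both lactate carriers rose. Slc16a3, the carrier MCT4 that exports lactate from glycolytic cells, was weakly expressed and went from 1.72 ± 0.472 to 3.88 ± 0.819 FPKM in PRA and from 1.98 ± 0.421 to 3.59 ± 0.706 FPKM in PRB, by 0.85 (SE 0.16, adjusted p = 0.000246) and 0.62 (SE 0.16, adjusted p = 0.00294). Slc16a1, the carrier MCT1, overlapped between treatments in both strains. It rose by 0.34 (adjusted p = 0.0471) and 0.40 (adjusted p = 0.0233), and these calls were lost under 13 and 7 of 24 alternative settings, with differences of 0.18 to 0.43 in PRA and 0.22 to 0.53 in PRB.

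**Figure D3:**
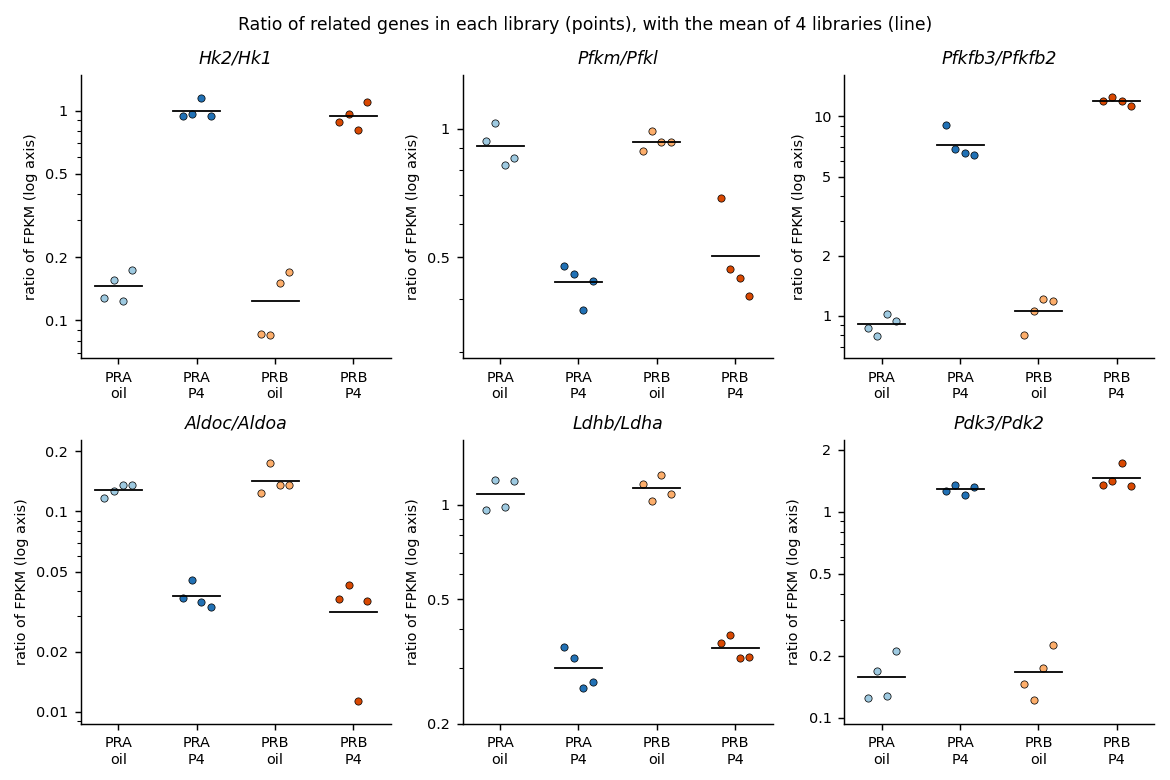
Ratio of the FPKM of related genes in each library (points) and the mean of 4 libraries (line), on log axes. Within each strain the oil and P4 libraries do not overlap for any of the 6 ratios, and the third PRB replicate with P4 is low for Aldoc to Aldoa, at 0.0113.

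The 4 pyruvate dehydrogenase kinase genes did not move as one. Pdk2, the most abundant with oil, was at 50.2, 45.4, 50.5 and 40.2 FPKM with oil and 22.5, 19.2, 18.05 and 17.8 FPKM with P4 in PRA. PRB had 48.1, 51.7, 44.5 and 40.6 FPKM and 21.0, 21.4, 19.7 and 18.4 FPKM. Pdk2 fell, with differences of -1.22 (SE 0.092, adjusted p = 2.86e-08) and -1.16 (SE 0.092, adjusted p = 4.91e-08), and Pdk1 fell, with differences of -1.06 (SE 0.12, adjusted p = 2.29e-06) and -1.03 (SE 0.12, adjusted p = 3.24e-06). Pdk3 (chrX:93764607-93832201) rose instead, from 6.25, 7.65, 6.47 and 8.43 FPKM to 28.4, 26.0, 21.7 and 23.5 FPKM in PRA. In PRB it rose from 7.00, 6.30, 7.76 and 9.13 FPKM to 28.2, 30.1, 33.8 and 24.5 FPKM. The differences were 1.66 (SE 0.12, adjusted p = 2.19e-08) and 1.82 (SE 0.12, adjusted p = 8.77e-09), and the ratio of Pdk3 to Pdk2 went from 0.158 ± 0.0401 to 1.29 ± 0.0657 in PRA and from 0.167 ± 0.0442 to 1.45 ± 0.180 in PRB. The strains differed in Pdk4, described with the strain comparison.

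The genes of the complex itself rose, by less than Pdk3. Pdha1 and Pdhb, which encode the 2 subunits of its first enzyme, rose by 0.35 (adjusted p = 2.98e-07) and 0.32 (adjusted p = 1.05e-05) in PRA and by 0.34 (adjusted p = 4.28e-07) and 0.38 (adjusted p = 1.52e-06) in PRB. The ratio of Pdhb to Pdha1 stayed between 0.492 and 0.565 over all libraries.

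All 5 pentose phosphate genes rose in PRA and 4 in PRB, against 36.6% and 36.2% of all features tested. G6pdx, the entry enzyme that yields NADPH, was at 27.9, 22.2, 29.2 and 21.8 FPKM with oil and 50.2, 47.2, 40.6 and 37.5 FPKM with P4 in PRA. In PRB it was at 24.4, 24.0, 22.5 and 24.1 FPKM and 40.3, 42.4, 80.8 and 37.5 FPKM, with the third P4 replicate far above the others. Without that library the PRB difference of G6pdx was 0.73. The treatments did not overlap, and G6pdx rose by 0.78 (SE 0.19, adjusted p = 0.00202) and 0.98 (SE 0.19, adjusted p = 0.000315). Taldo1, the transaldolase gene, rose by 0.78 (adjusted p = 2.92e-08) and 0.65 (adjusted p = 1.85e-07). Rpia, which makes ribose 5-phosphate, rose by 0.44 (adjusted p = 1.25e-06) and 0.38 (adjusted p = 6.05e-06), and Pgd, the second NADPH-yielding enzyme, by 0.33 (adjusted p = 2.55e-06) and 0.26 (adjusted p = 2.58e-05). Tkt, the transketolase gene, rose from 68.2 ± 0.725 to 87.7 ± 3.53 FPKM in PRA, by 0.36 (SE 0.053, adjusted p = 2.77e-05), and its difference in PRB was 0.11 (SE 0.053, adjusted p = 0.0701). Fbp2, a gluconeogenic phosphatase, was the lowest of the 36 genes and had differences of 0.64 (adjusted p = 0.0526) and 0.39 (adjusted p = 0.224).

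Part of the smaller changes depended on the scale between libraries. Because total FPKM was higher with P4, setting all libraries to the same total shifted the median difference of all features to -0.14 in PRA and -0.17 in PRB. Then 27.9% of all features rose and 43.8% fell in PRA, and 26.5% and 44.9% in PRB. Of the 36 genes 20 rose and 11 fell in PRA, and 18 and 12 in PRB. Under this scaling the calls of Eno1, Pfkl and Slc16a1 in PRA and of Pfkl, Pgd and Slc16a1 in PRB were lost. Gained as lower were Eno3 in PRA and Pfkp and Pdk4 in PRB, the last with an adjusted p of 0.0264. Quantile normalization gave 22 higher and 10 lower in PRA and 17 higher and 10 lower in PRB. It ended the calls of Eno1 and Tkt in PRA and of Aldoa, Pdha1, Pfkfb4, Pfkl, Pgd and Tpi1 in PRB, and turned Tkt in PRB to -0.17 (adjusted p = 0.0164). Fbp2 was gained as higher in both strains. Gpi1 depended on the scale as well: it was at -0.26 in PRA and -0.38 in PRB after quantile normalization and at -0.20 and -0.31 at the same total, with adjusted p-values under 0.05 in each case. Slc2a3, Hk2, Pfkm, Pfkfb2, Pfkfb3, Aldoc, Pgk1, Pgam1, Ldha, Ldhb, Slc16a3, Pdk1, Pdk2, Pdk3 and G6pdx kept their calls in both strains and moved by less than 1.5 times under each of the 24 alternatives, or 23 for Slc16a3, which a filter at a mean of 5 FPKM leaves out.

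The strains were then compared within each treatment. With oil none of the 36 genes passed in limma's test, while 0.0389% of all features were higher and 0.0779% lower in PRB. An unadjusted p under 0.05 was found for 2 of the 36 and for 5.21% of all features. With P4, 3 genes were higher in PRB and 6 lower, against 7.75% and 8.29% of all features. The genes higher in PRB were Slc2a1, by 0.41 (SE 0.11, adjusted p = 0.0242), Pfkfb3, by 0.62 (SE 0.099, adjusted p = 0.00116), and Pdk4, by 0.97 (SE 0.16, adjusted p = 0.00167). The plot of the strain differences shows that the enzymes lower in PRB differed by less than Slc2a1.

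**Figure D4:**
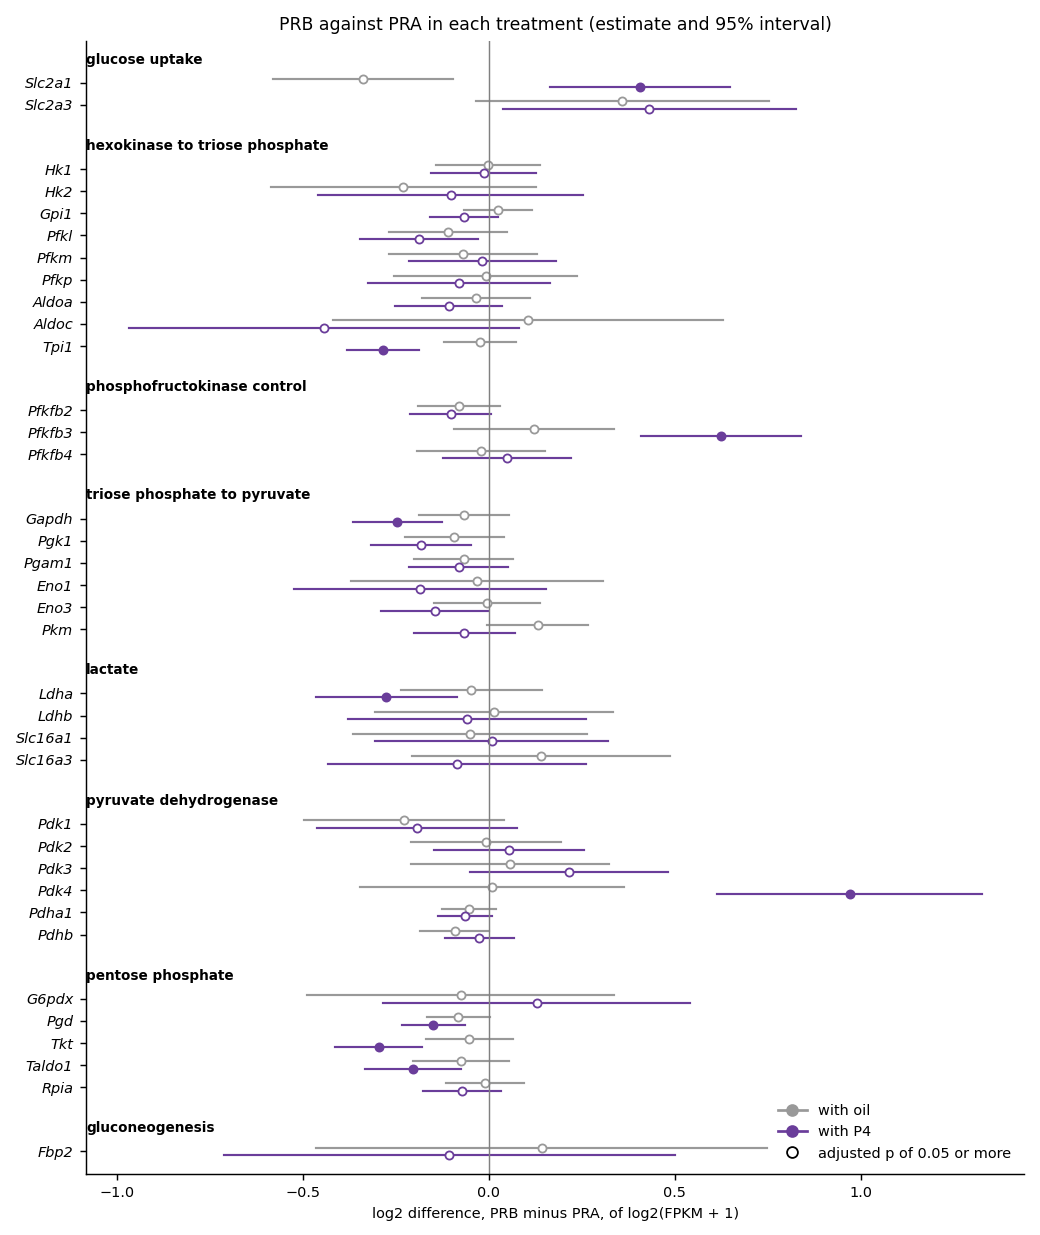
Log2 difference between PRB and PRA for the 36 genes with oil (grey) and with P4 (purple), with 95% intervals; open points did not pass an adjusted p of 0.05. All oil points are open, and with P4 Pdk4 at 0.97 and Pfkfb3 at 0.62 lie farthest to the right.

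Lower in PRB with P4 were Tkt at -0.30 (adjusted p = 0.00240), Tpi1 at -0.28 (adjusted p = 0.00106), Ldha at -0.28 (adjusted p = 0.0446), Gapdh at -0.25 (adjusted p = 0.00855), Taldo1 at -0.20 (adjusted p = 0.0321) and Pgd at -0.15 (adjusted p = 0.0187). Tpi1 was at 173, 173, 180.1 and 179 FPKM in PRA and 143, 137, 149 and 149 FPKM in PRB, and Tkt at 84.97, 85.4, 92.7 and 87.9 FPKM and 70.0, 66.9, 71.8 and 76.5 FPKM. All 6 genes were lower in every PRB library with P4 than in every PRA library with P4. The same libraries gave the calls, so this separation adds no support of its own. The call of Ldha was lost under 13 of 24 alternatives, that of Taldo1 under 7 and that of Slc2a1 under 6, while those of Pfkfb3, Pdk4, Tpi1, Tkt, Gapdh and Pgd held under all 24. Slc2a3, at 0.43 (adjusted p = 0.121), would have passed without the first PRB replicate with P4, its lowest, at a difference of 0.64. These differences lie beside others between the same libraries: summed endothelial markers were at 176 to 217 FPKM in PRA and 242 to 249.6 FPKM in PRB with P4, and epithelial markers at 1368 to 1743 and 1679.6 to 2182 FPKM. Summed skeletal muscle markers were higher in every PRA library, at 83.4 to 152 FPKM against 48.4 to 79.4 FPKM in PRB, the direction of the 6 enzymes lower in PRB. Most of that sum was Acta1. Only 2 of the 8 genes reached the minimum for testing, with differences of -0.98 and -0.27, and neither passed. Without the third PRB replicate with P4 the calls of Slc2a1 and Ldha were lost and Pgk1 passed. The part of these markers in the result was not tested.

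The response itself differed between the strains for 2 genes in the direction of PRB and for 1 in the direction of PRA, against 1.47% and 0.811% of all features. Pdk4 encodes the kinase induced by fasting (chr6:5483351-5496309). In PRA it was at 9.59, 6.66, 8.07 and 5.64 FPKM with oil and 1.76, 2.87, 2.94 and 2.71 FPKM with P4, without overlap, and fell, with a difference of -1.24 (SE 0.16, adjusted p = 8.16e-06). In PRB it was at 7.35, 9.61, 6.82 and 6.23 FPKM and 4.82, 6.10, 7.11 and 5.85 FPKM, overlapping, with -0.28 (SE 0.16, adjusted p = 0.139). With all libraries set to the same total FPKM, Pdk4 passed as lower in PRB as well (adjusted p = 0.0264). The difference of the responses was 0.96 (SE 0.23, adjusted p = 0.0455), with a 95% interval of 0.46 to 1.46. Fat also expresses Pdk4. Adipose markers summed to 90.01 to 266 FPKM in PRA and 81.6 to 242 FPKM in PRB with P4 and overlapped, and to 93.4 to 621 and 106 to 411 FPKM with oil. All 6 adipose genes had lower estimates with P4 in PRA, from -1.196 to -0.60 with a median of -0.87, and 1 passed. In PRB the median was -0.47 and none passed. These responses to P4 have the direction of Pdk4. Between the strains, PRB against PRA, the 6 adipose genes had a median of -0.70 with oil. With P4 they had -0.44, from -0.64 to 0.38, and none passed in either treatment. Pdk4 itself was at 0.0087 with oil and 0.97 with P4. The part of the adipose genes in the result was not tested.

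For Slc2a1 the difference of responses was 0.75 (SE 0.16, adjusted p = 0.0258), with an interval of 0.40 to 1.09, and for Tpi1 -0.26 (SE 0.063, adjusted p = 0.0462), with an interval of -0.40 to -0.12. All 3 calls lie near the threshold: leaving out single libraries and other settings ended that of Slc2a1 under 8 of 23 alternatives and those of Pdk4 and Tpi1 under 16 each. Their estimates ranged from 0.67 to 0.83 for Slc2a1, from 0.84 to 1.19 for Pdk4 and from -0.29 to -0.22 for Tpi1. Pfkfb3 had a difference of 0.50 (SE 0.14, adjusted p = 0.0782), and without the first PRA replicate with P4 its adjusted p was 0.0281. Tkt had -0.24 (adjusted p = 0.111), and without the second PRB replicate with oil its adjusted p was 0.0288. With Tkt included, the 32 genes other than Slc2a1, Pdk4, Tpi1 and Pfkfb3 had adjusted p-values of 0.111 or more. For Slc2a3, Hk2 and Pdk3 the intervals of -0.48 to 0.63, -0.38 to 0.63 and -0.22 to 0.53 leave room for differences in either direction.

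Neighbouring pathways were counted from lists of genes by function. The counts of each list stand against 36.6% higher and 33.2% lower of all features in PRA, and 36.2% and 32.9% in PRB. The TCA cycle, which takes up the acetyl-CoA made from pyruvate, had 14 of 18 genes higher and 1 lower with P4 in each strain. Cs, which encodes citrate synthase, rose from 57.8 ± 1.44 to 121 ± 2.74 FPKM in PRA and from 57.1 ± 2.77 to 114 ± 5.51 FPKM in PRB, by 1.05 (adjusted p = 1.50e-10) and 0.98 (adjusted p = 1.98e-10). Idh3a, the catalytic subunit of the NAD-dependent isocitrate dehydrogenase, rose by 1.01 (adjusted p = 3.98e-10) and 0.93 (adjusted p = 6.14e-10). The mitochondrial malate dehydrogenase gene Mdh2 rose by 0.97 (adjusted p = 1.85e-09) and 0.92 (adjusted p = 2.85e-09).

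Glycogen genes moved mainly down, with 4 of 18 higher and 12 lower in PRA and 3 higher and 9 lower in PRB. None of the 18 passed for a difference of the responses, so a value given for 1 strain does not mark a change limited to it. Among the genes that rose were Gys1, the glycogen synthase gene, by 1.03 (adjusted p = 7.71e-07) in PRB, and Ugp2, which makes UDP-glucose, by 0.89 (adjusted p = 1.58e-06) in PRA and 0.90 (adjusted p = 1.42e-06) in PRB. Those that fell include Pygl, a glycogen phosphorylase, with -0.96 (adjusted p = 0.000160) in PRA, and Phka2, a subunit of phosphorylase kinase, with -1.06 (adjusted p = 1.99e-07) in PRA and -0.80 (adjusted p = 3.86e-06) in PRB. Ppp1r3c, a subunit that targets a phosphatase to glycogen, fell in PRB, with -1.25 (adjusted p = 7.09e-07).

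Among 22 other tested genes of glucose transport, glycolysis and pyruvate handling, 11 rose and 6 fell in PRA, and 12 and 6 in PRB. None of these 22 passed for a difference of the responses, so a call in 1 strain does not mark a change limited to it. Sugar carriers went both ways: Slc2a12 rose by 1.83 (adjusted p = 3.62e-06) in PRB and Slc2a10 by 0.84 (adjusted p = 7.43e-07) in PRA and 1.299 (adjusted p = 8.73e-09) in PRB, and Slc2a8 fell, with differences of -1.37 (adjusted p = 2.22e-09) and -1.10 (adjusted p = 1.57e-08). Slc2a4, the insulin-responsive transporter GLUT4, fell, with a difference of -1.08 (adjusted p = 7.19e-05) in PRA and had -0.28 (adjusted p = 0.176) in PRB. Fat also expresses Slc2a4. The adipose sums given above overlapped between treatments, while the 6 adipose genes had median differences of -0.87 in PRA and -0.47 in PRB, the direction of Slc2a4. Their part in the result was not tested. Of 12 other pentose phosphate and gluconeogenesis genes 6 rose and none fell in PRA, and 6 rose and 2 fell in PRB. Tigar, whose product lowers fructose 2,6-bisphosphate and was matched by an older symbol, rose by 1.15 (adjusted p = 3.83e-08) and 1.25 (adjusted p = 1.64e-08). Galm, the aldose mutarotase gene, went from 24.5 ± 1.41 to 75.2 ± 9.002 FPKM in PRA and from 23.8 ± 1.77 to 105 ± 10.3 FPKM in PRB, with a difference of responses of 0.53 (SE 0.12, adjusted p = 0.0432).

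**Figure D5:**
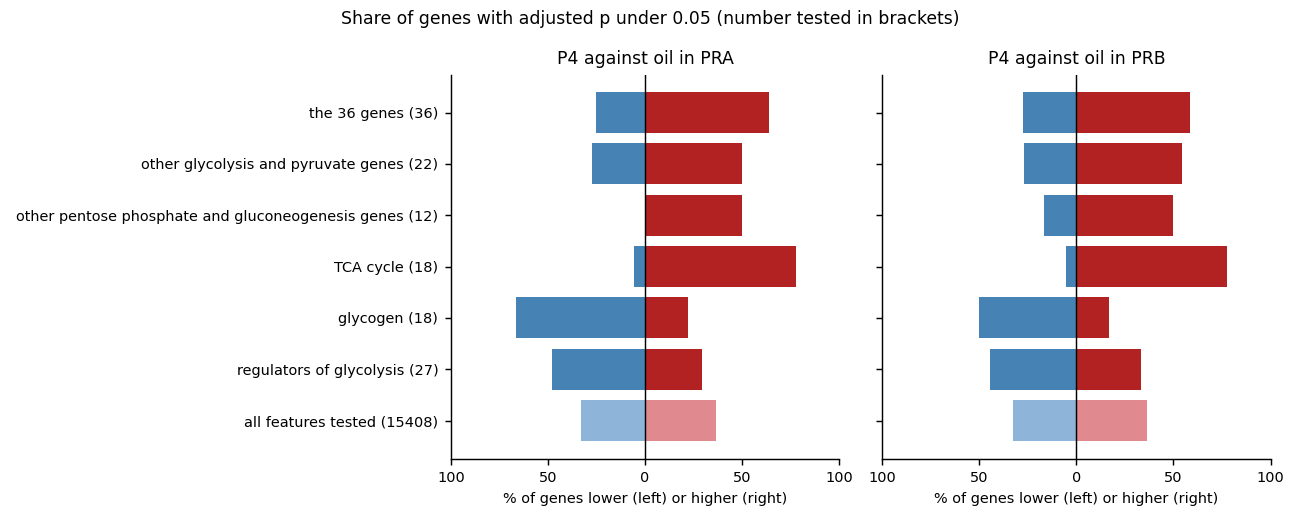
Share of genes that rose (red, right) or fell (blue, left) with P4 in each strain at an adjusted p under 0.05, for the 36 genes, 5 neighbouring lists and all 15408 features tested. TCA cycle genes reach 77.8% higher in both strains, and glycogen genes 66.7% lower in PRA and 50% lower in PRB.

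Regulators of the pathway moved in both directions, with 8 of 27 higher and 13 lower in PRA and 9 higher and 12 lower in PRB. So did all features tested, at 36.6% and 33.2% in PRA and 36.2% and 32.9% in PRB. Hif1a, the oxygen-sensitive activator of many glycolytic genes, was at 32.0, 36.9, 34.9 and 38.8 FPKM with oil and 105, 102, 84.0 and 88.3 FPKM with P4 in PRA. In PRB it was at 40.0, 31.9, 36.7 and 37.5 FPKM and 115, 102, 128 and 99.3 FPKM. Hif1a rose by 1.38 (adjusted p = 1.45e-08) and 1.58 (adjusted p = 3.93e-09), with no overlap between treatments. Mycn, a member of the Myc family, fell, with differences of -2.18 (adjusted p = 4.68e-07) and -2.43 (adjusted p = 1.50e-07), and Ppargc1a, a coactivator of mitochondrial genes, with -1.83 (adjusted p = 2.19e-08) and -1.78 (adjusted p = 2.91e-08). The insulin receptor substrate genes fell as well, Irs2 with -1.40 (adjusted p = 4.03e-05) in PRA and Irs1 with -1.58 (adjusted p = 1.78e-08) in PRB. Arrdc4, an arrestin-domain gene known to lower glucose uptake, was the regulator whose response differed between the strains, by -0.69 (SE 0.16, adjusted p = 0.0378): it had -0.079 (adjusted p = 0.546) in PRA and -0.77 (adjusted p = 2.31e-05) in PRB.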

How the data were processed

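Whole uteri of ovariectomized mice were profiled by RNA-seq in 16 libraries, 4 in each of 4 groups. FPKM values per gene symbol were deposited by the authors. TopHat2 2.0.4, Cufflinks 2.0.2, Cuffdiff and build mm10 are named per the submitters' processing notes. Neither the strand setting nor any scaling across libraries is stated in those notes or the labels. FPKM hold no fragment counts, so no counting interval is given.

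Values were analysed as log2(FPKM + 1), which understates changes of low genes. Of 31274 features, the 15408 whose average over the libraries reached 1 FPKM were kept. One limma 3.58.1 model (R 4.3.3) with 4 group means and a trended prior was fitted to all 16 libraries (12 residual degrees of freedom), with Benjamini-Hochberg adjustment over all features tested and a threshold of 0.05. The procedure was tested on simulated data with independent noise and few changed features, all in the group PRA with P4. Most features changed with P4 in the real data, a setting that the simulation does not cover. The 36 genes and the lists of neighbouring pathways and markers were chosen with earlier results of these data known. All 36 genes could be named. From each other list, up to 4 called genes with the largest absolute difference in a contrast were named. A gene named for 1 strain may therefore have moved in the other as well. Ratios and summed levels were taken per library from FPKM. Promoter windows came from RefSeq, and gene positions and exons from the GENCODE annotation of the same assembly. The alternatives were a pseudocount of 0.1, no filter, a filter at 5 FPKM, median-ratio scaling, quantile normalization, the same total FPKM, only the libraries of a contrast, a replicate block and each library left out.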

Additional observations from a re-analysis of the deposited data

Results flagged for a closer look

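Single libraries stood apart from the other 3 of their group in 11 of 144 combinations of gene and group, by the ratio of the gap to the range (Dixon's test at the 95% level), and chance alone gives about 1 in 20. In PRB with P4, the third replicate was low for Aldoc (2.80 FPKM) and Ldhb (71.9 FPKM) and high for G6pdx (80.8 FPKM), and this library also stood apart in its leukocyte markers (70.8 FPKM in sum). The first was high for Pfkm (13.0 FPKM) and low for Slc16a1 (13.5 FPKM). In PRB with oil, the first replicate was low for Pfkfb3 (18.6 FPKM), the second high for Aldoc (31.4 FPKM) and low for Tkt (58.7 FPKM), and the third high for Slc16a1 (16.2 FPKM). In PRA with P4, the second replicate stood apart for Pfkp (9.05 FPKM) and the fourth for Fbp2 (3.83 FPKM).

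Responses to P4 differed between the strains by the test of the difference itself for 3 genes, given as PRB minus PRA from limma with n = 4 in each group. Slc2a1 differed by 0.75 on the log2 scale, Pdk4 by 0.96 and Tpi1 by -0.26.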

How the results depend on the processing

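Among the 36 genes, the counts of genes that rose or fell with P4, and of genes that differed between the strains within a treatment, stayed within 1.5 times under each setting that keeps all libraries. Leaving out each library in turn gave 21 to 24 higher and 9 lower for P4 in PRA, 19 to 21 higher and 9 to 11 lower for P4 in PRB, 0 in either direction between the strains with oil, and 2 to 4 higher and 4 to 6 lower with P4. The count of genes whose response differed is the least stable: it was 2 higher and 1 lower, 1 higher and 0 lower without the filter on low values, 1 higher under quantile normalization, 1 higher at the same total FPKM, and 0 to 2 higher and 0 to 1 lower with a library left out. The cause was not tested. One direction turned, that of Tkt with P4 in PRB, to -0.17 (adjusted p = 0.0164) under quantile normalization. With a replicate block the counts were 24 higher and 9 lower for P4 in PRA, 22 and 10 in PRB, 0 and 0 between strains with oil, 3 and 6 with P4, and 2 and 1 for the difference of responses. Libraries that share a number correlated between -0.23 and 0.31, above 0.1 in 6 of 24 pairs, so the numbers were not taken as pairs. The depth in fragments is unknown, which limits what can be said of Fbp2 and Slc16a3, the lowest of the 36 genes.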
